A study of Mus musculus with 2 samples.

Results

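Liver monocytes were taken here as the cell barcodes selected on their counts of monocyte genes, namely those with at least 4 UMIs (unique molecular identifiers, each standing for 1 captured transcript) over Ccr2, Ly6c2, Fgr, Gpr141 and S100a4. They also had to lack Clec4f and Timd4 of Kupffer cells, Cd3e, Cd79a and Ncr1 of lymphocytes, and to hold at most 1 UMI each of the dendritic genes (Flt3, Xcr1 and Siglech together), of endothelial Stab2 and of the neutrophil genes (Retnlg and Il1r2 together). This rule found 189 barcodes of the 23889 that passed limits of 300 genes or more and of 20% mitochondrial UMIs or less. Of these, 83 of 11458 came from the library labelled SLC22A18-/- (KO) and 106 of 12431 from the library labelled SLC22A18+/+ (WT).

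The study profiled liver tissue of mice with both copies of Slc22a18 labelled as lost, and of mice labelled as carrying both copies, by droplet single-cell RNA sequencing of transcript 3' ends. Slc22a18 is an imprinted gene for a membrane transporter, and the series title links it to fatty liver with allergy and short stature, and to beta-catenin with Ascl2. Each genotype is 1 library described as 1 sample of liver tissue. The labels give no strain, age, sex, number of animals or removed exons, so genotype cannot be told apart from animal or library, no test was run, and every 95% interval below covers counting error only.

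Monocytes are blood phagocytes made in the bone marrow. Classical monocytes carry Ly6C and the chemokine receptor CCR2, follow CCL2 into inflamed tissue and can become macrophages or antigen-presenting cells there. Nonclassical monocytes carry CX3CR1, depend on the nuclear receptor NR4A1 and patrol the vessel wall, and in the liver both kinds pass through the sinusoids beside the resident Kupffer cells, whose niche recruited monocytes can refill.

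The selected barcodes were as rare in the one library as in the other within counting error. Of all kept barcodes they were 0.724% (0.577 to 0.897) in KO and 0.853% (0.699 to 1.03) in WT, a ratio of 0.850 (0.630 to 1.14). Their depth was close as well. The median was 5557 UMIs and 2276 genes in the 83 KO barcodes, and 5281 UMIs and 2297 genes in the 106 WT barcodes. Summed over the members, the KO library gave 477790 UMIs and the WT library 592742, out of 103478998 in all KO and 105556354 in all WT barcodes. The libraries shared 38 barcode strings, none of them among the members. A doublet caller marked 1 KO member and 0 WT members.

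The marker sum that chose the members had a median of 9 UMIs in each library, and S100a4, which lymphocytes and macrophages also make, supplied 42.5% of it in the KO and 40.0% in the WT library. Just inside the limit, with a sum of 4 UMIs, lay 14 KO and 16 WT barcodes, and just outside it, with a sum of 3, lay 28 KO and 27 WT barcodes that met the other conditions.

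About 2 in 3 of the selected barcodes met a check on markers shared by monocytes and macrophages. A barcode was called marker-supported when it held at least 3 UMIs of 12 pan-monocyte and macrophage genes (among them Csf1r, Lyz2, Cd14, Itgam and Cybb, none used by the rule), when these were at least 0.1% of its UMIs, and when it held at most 2 UMIs over 24 T cell and NK or ILC1 genes. This check was chosen after seeing the data. Where barcodes are called monocyte barcodes below, the name follows the selection rule and not this check. It was met by 57 of 83 KO barcodes (68.7%, 57.6 to 78.4) and by 72 of 106 WT barcodes (67.9%, 58.2 to 76.7). Of the 26 KO and 34 WT barcodes that did not meet it, 19 KO and 30 WT held more than 2 T or NK UMIs, and 24 KO and 29 WT held at most 2 UMIs of the monocyte and macrophage genes. In 16 members S100a4 alone made up the marker sum, and 15 of these were unsupported. The check does not tell one phagocyte from another. It was met by 74.6% of KO and 73.0% of WT barcodes gated on the Kupffer genes Clec4f and Timd4. Barcodes gated on the neutrophil genes Retnlg and Il1r2 met it in 79.4% of KO and 74.4% of WT. Of barcodes gated on the T cell gene Cd3e, 0 of 212 KO and 0 of 295 WT met it (exact upper limits 1.72% in KO and 1.24% in WT). Cd3e is among the 24 genes, and that gate asks for 2 of its UMIs. The 0 was therefore nearly fixed in advance and does not show how well the check removes lymphocytes. Supported barcodes were 0.497% of kept barcodes in the KO and 0.579% in the WT library, a ratio of 0.859 (0.596 to 1.23).

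**Figure D1:**
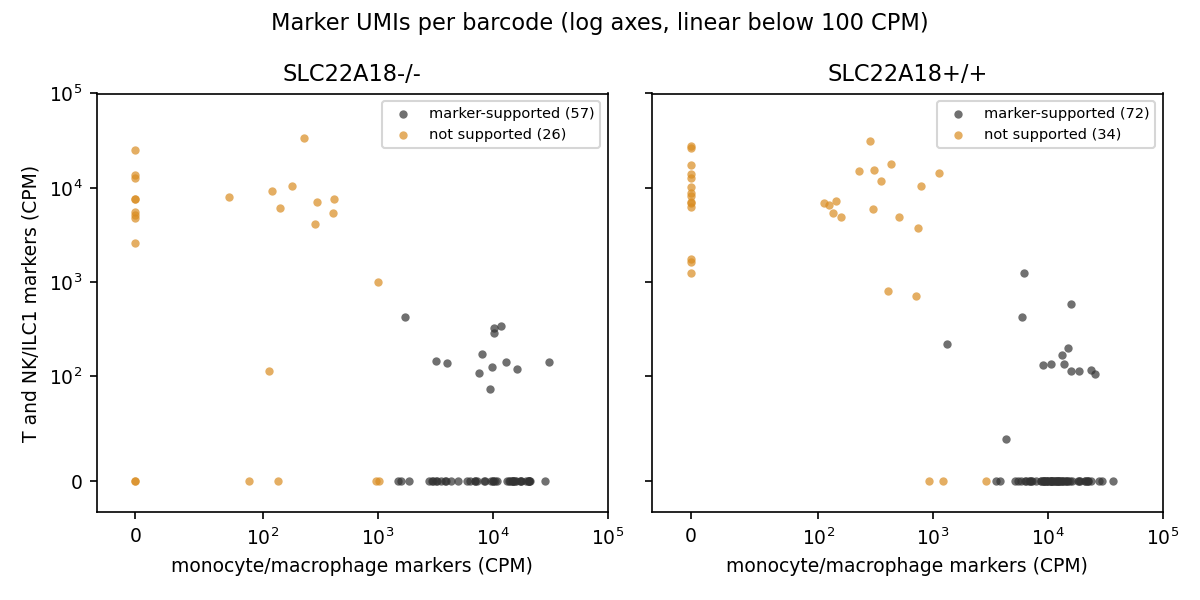
Each point is 1 selected barcode, with the 12 monocyte and macrophage markers on the horizontal axis and the 24 T cell and NK or ILC1 markers on the vertical axis, both in CPM (counts scaled to the same standard total for every barcode or library; log scale, linear below 100), for the library labelled SLC22A18-/- at left and SLC22A18+/+ at right. The 57 KO and 72 WT supported barcodes lie at the lower right, and most of the 26 KO and 34 WT others lie at the upper left, with T or NK markers and few monocyte markers.

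Other cell types left traces of unequal size in the supported barcodes. Their T and NK marker level was 53.5 CPM in the KO and 33.4 CPM in the WT library, against pan-monocyte levels of 11246 CPM in KO and 13038 CPM in WT. The 12 Kupffer markers summed to 1796 CPM in KO, with 9 detected and 0 to 13349 CPM per barcode, and to 1085 CPM in WT, with 10 detected and 0 to 13007 CPM per barcode; Clec4f and Timd4 were at 0 by the rule. The 13 neutrophil markers summed to 185.5 CPM in KO, with 7 detected and 0 to 1896 CPM per barcode. In WT they summed to 1035 CPM, with 8 detected and 0 to 10813 CPM per barcode. Retnlg and Cxcr2 were at 0 in both libraries. The rule allowed at most 1 UMI over Retnlg and Il1r2, so the 0 of Retnlg was nearly fixed in advance. A single WT barcode held 204 S100a8 and 67 S100a9 UMIs of the 433 WT UMIs of this list. In all classical-like barcodes, supported or not, this list stood at 414 CPM in KO and 703 CPM in WT, with at least 3 UMIs in 2 of 23 KO and 16 of 36 WT barcodes. These counts depend on depth, with a median of 1423 UMIs in the KO and 5930 UMIs in the WT barcodes of that cluster. The hepatocyte markers summed to 7938 CPM in KO and 6157 CPM in WT and had at least 3 UMIs in all 57 KO and all 72 WT barcodes, so that hepatocyte RNA was counted in each of them. It was not subtracted. The part of these traces in the results below was not tested, except where a value is given.

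Clustering of the 189 barcodes gave classical-like and nonclassical-like monocytes, and a cluster led by MHC class II genes that no fixed marker list named. It also gave a mixed cluster with division genes among its leading genes, and T-like and NK/ILC1-like clusters. The classical-like cluster held 23 KO and 36 WT barcodes and was led by Thbs1, F13a1, Slpi, Chil3, Fn1 and Vcan. The nonclassical-like cluster held 18 KO and 25 WT barcodes, led by Cd36, Dusp16, Pparg and, of the fixed markers, Ace, Ear2, Treml4 and Pglyrp1. The unnamed H2-Ab1 cluster held 18 KO and 11 WT barcodes, led by H2-Ab1, H2-Aa, H2-Eb1, Cd74, Tmtc2, Il1rn, Cxcl10, Cxcl2, C1qa and H2-DMb1. C1qa is also on the Kupffer marker list, and 1 unsupported WT barcode held 71.8% of the WT UMIs of Tmtc2. The T-like cluster (12 KO and 18 WT), in which Ly6c2 was 64.6% of the marker sum over both libraries, and the NK/ILC1-like cluster (4 KO and 9 WT), in which S100a4 was 92.3% of it, held no supported barcode. Ly6c2 is also made by memory T cells in mice, and Cd3e and Ncr1 were at 0 in these barcodes by the rule. The mixed cluster (8 KO and 7 WT) was led by Stmn1, Top2a, Birc5, Dpyd, Diaph3, Mki67, Ghr, Cyp2d13, Pclaf and Knl1. It held 5 supported barcodes in each library. Its hepatocyte markers had a median of 13412 CPM per barcode over both libraries, with up to 66343 CPM. Single barcodes of this cluster held 64.9% of the KO UMIs of Stmn1 and 73.1% of the WT UMIs of Top2a.

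The 2 monocyte-like clusters carried their own marker lists in both libraries. In the classical-like cluster the 16 classical markers reached 15032 CPM in the KO and 13488 CPM in the WT library, while the 16 nonclassical markers reached 2655 CPM in KO and 2943 CPM in WT. In the nonclassical-like cluster the order turned round, with classical markers at 5447 CPM in KO and 5629 CPM in WT, and nonclassical markers at 8321 CPM in KO and 8776 CPM in WT. Those of the classical markers that belong to the rule (Ccr2, Ly6c2, Fgr and Gpr141) were used to choose the barcodes, so these levels describe the clusters and support nothing. The depth of the classical-like barcodes differed, with a median of 1423 UMIs in the KO and 5930 UMIs in the WT library.

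**Figure D2:**
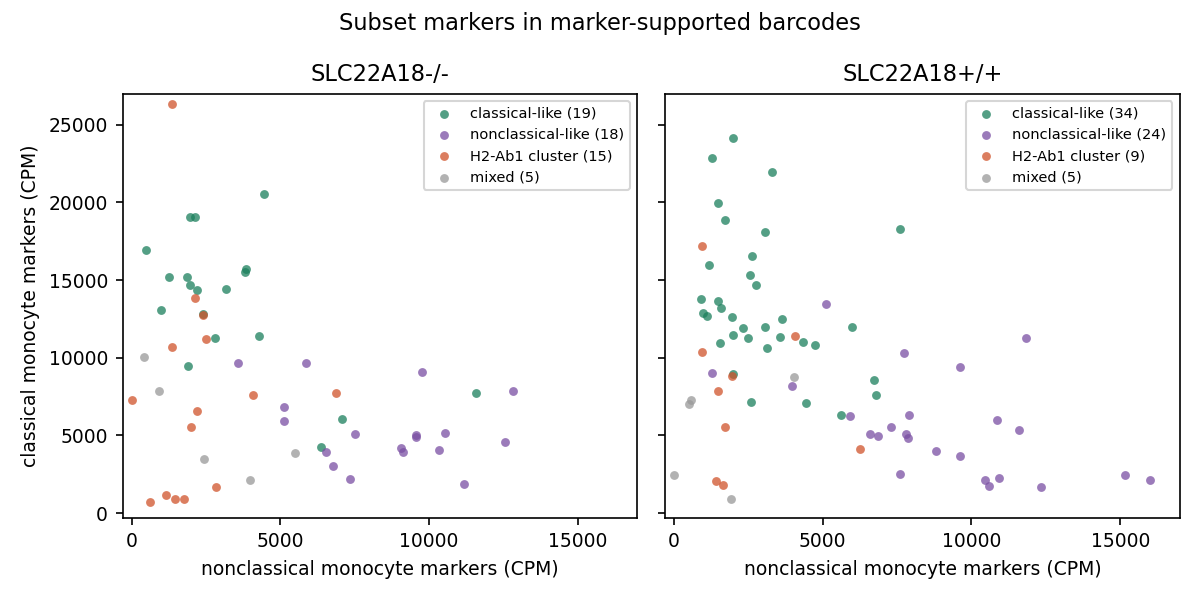
Each point is 1 marker-supported barcode, with the summed nonclassical markers on the horizontal and the summed classical markers on the vertical axis (CPM, linear axes), coloured by cluster, with the number of barcodes in the legend, for SLC22A18-/- at left and SLC22A18+/+ at right. The classical list is the higher in 16 of 19 KO and 34 of 34 WT classical-like barcodes, the nonclassical list in 14 of 18 KO and 19 of 24 WT nonclassical-like barcodes, and the H2-Ab1 cluster lies mostly at low nonclassical levels.

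A larger share of the KO barcodes fell in the MHC class II cluster. Because that cluster's genes also differed between the libraries, the clustering was repeated without the genes that met the size rule described below, and 172 of 189 barcodes kept their cluster. In this repeat the H2-Ab1 cluster held 19 KO barcodes (22.9%, 14.4 to 33.4) and 12 WT barcodes (11.3%, 5.99 to 18.9). The intervals overlap. The classical-like cluster held 22 barcodes (26.5%, 17.4 to 37.3) in the KO and 34 (32.1%, 23.3 to 41.8) in the WT library, and the nonclassical-like cluster 18 (21.7%, 13.4 to 32.1) in KO and 25 (23.6%, 15.9 to 32.8) in WT. When supported barcodes were thinned to 1762 UMIs and split by which marker list had more UMIs, the nonclassical list led in 21 of 46 KO barcodes (45.7%, 30.9 to 61.0) and 20 of 57 WT barcodes (35.1%, 22.9 to 48.9). Shallower barcodes, 11 KO and 15 WT, were left out of this split. They included 9 of the 19 KO and 13 of the 34 WT supported classical-like barcodes, but 0 of the 18 KO and 1 of the 24 WT nonclassical-like ones, so the depth limit raises the nonclassical share in both libraries.

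For each gene the UMIs of all barcodes of a set were summed per library, scaled to CPM, and the level in the KO library was divided by that in the WT library. A gene met the size rule when it had at least 50 UMIs over both libraries, a ratio of at least 2 in either direction with 1 outside its 95% interval, and detection in 5% or more of the barcodes of the higher library. Over all 189 barcodes, 4091 genes were measured, those with enough UMIs and outside the rule's own genes, of which 52 were higher (1.27%) and 52 lower (1.27%) in the KO library. Over the 129 supported barcodes, 2822 genes were measured, of which 46 were higher (1.63%) and 45 lower (1.59%). Both sets called 21 of the higher and 18 of the lower genes. Counts of calls in the gene lists below are to be read beside the shares of 1.63% and 1.59%. By the same rule, in sets of other size and depth, 0.27% of genes were higher and 0.154% lower in Kupffer barcodes, 0.994% higher and 3.26% lower in neutrophil barcodes, and 4.31% higher and 1.93% lower in dendritic barcodes. The Cd3e-gated barcodes had 1.49% higher and 0.653% lower, and all barcodes outside the members 0.157% higher and 0.0576% lower.

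Single barcodes carried much of the list. Of the 12 largest ratios upward over all members, most genes owed the largest part of their UMIs to 3 unsupported barcodes of the KO library. One of these held 50 of the 54 UMIs of Nkain2, 43 of the 52 of Dmd and 51 of the 58 of Stard13, with 12 UMIs of S100a4 and 1 UMI over the monocyte and macrophage markers. Another held the most UMIs of Prex2, Mast4 and Emp1 beside 38 UMIs of sinusoidal endothelial markers, and the third held 29 of the 48 UMIs of Diaph3. In supported barcodes Nkain2 had 2 KO and 1 WT UMIs and Stard13 had 5 KO and 7 WT UMIs, so none of these genes is counted among the results for supported barcodes. When the highest barcode of each gene was left out in each library, the supported set kept 17 of its 46 higher and 21 of its 45 lower calls. The results below therefore come from the supported barcodes unless stated, with the value without the highest barcode where it matters.

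The clearest differences in supported barcodes were more RNA of the chemokine Cxcl2 and of the classical MHC class II genes, and less of the inducible heat shock gene Hspa1b, of the adhesion gene Icam1 and of the monocyte secretory genes Chil3 and Pglyrp1. Not all of these held in each cluster. Cxcl2 was not higher in KO classical-like barcodes, and Chil3 went the other way in the H2-Ab1 cluster. The thinned share of barcodes with Chil3 was 30.4% in KO and 22.8% in WT. Genes that define the lineage, such as Csf1r, Spi1, Cx3cr1 and Nr4a1, had ratios near 1.

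**Figure D3:**
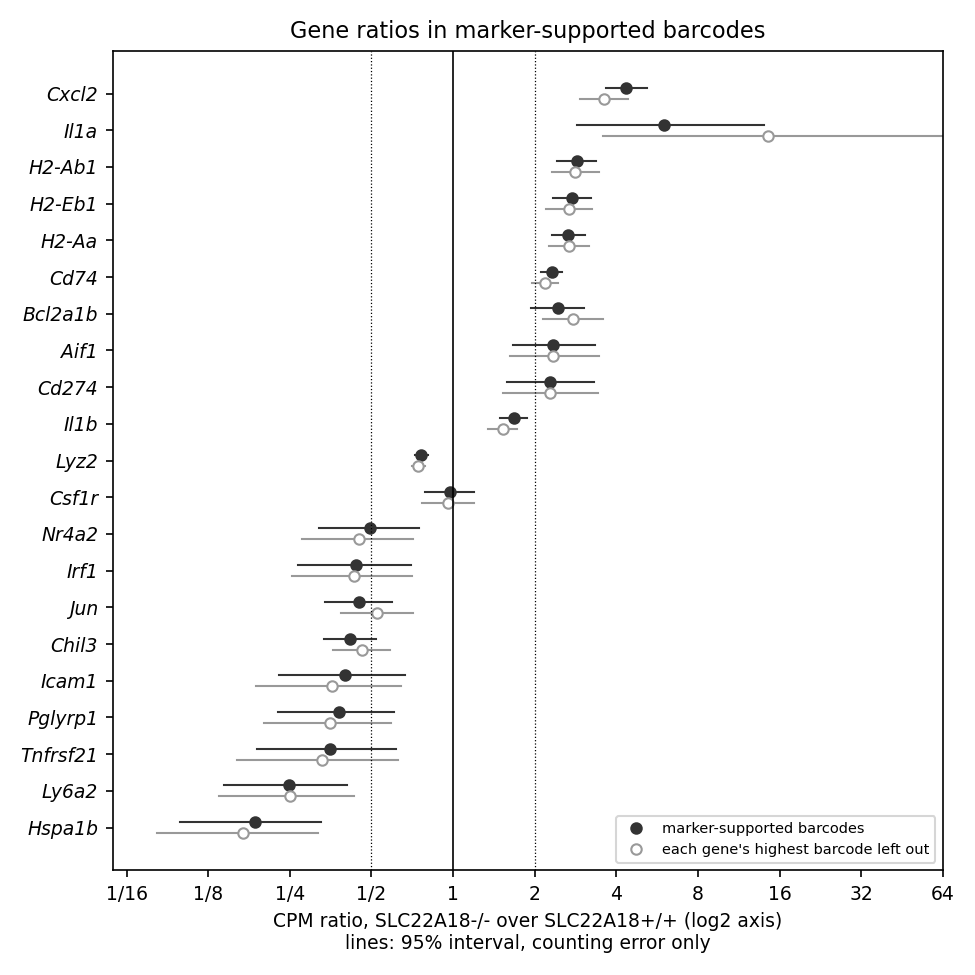
Ratios of CPM in SLC22A18-/- over SLC22A18+/+ for 21 genes in marker-supported barcodes (filled, 57 KO and 72 WT barcodes) and with each gene's highest barcode left out in each library (open), on a log2 axis with 95% counting intervals and dotted lines at ratios of 2 and 1/2. Cxcl2 and the MHC class II genes stay above 2 without their highest barcode, Hspa1b stays lowest, and Csf1r lies near 1.

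Chemokines and cytokines, with the MHC class II list, had the most genes higher. Of 16 list members measured, 4 were higher and 0 lower, and the median log2 ratio over 22 members was 0.56, beside -0.03 over 5574 genes. Cxcl2, which draws neutrophils through CXCR2, had 580 UMIs in 19 of 57 KO barcodes and 175 UMIs in 19 of 72 WT barcodes. This was 1824 CPM in the KO and 418 CPM in the WT library, a ratio of 4.36 (3.68 to 5.20). One KO barcode of the H2-Ab1 cluster held 209 of those UMIs, and without the highest barcode of each library the ratio was 3.59 (2.94 to 4.40). The same barcode also held the most UMIs of Il1a, Il1b, Cxcl16 (19 UMIs), Cd74, Aif1, Bcl2a1b and C1qa. It held 926 of the 2847 KO UMIs summed over H2-Aa, H2-Ab1, H2-Eb1 and Cd74. The ratios of these genes therefore share 1 barcode and are not independent. Highest barcodes were left out gene by gene. The clusters gave different values, with no test of that difference. In nonclassical-like barcodes Cxcl2 had 84 KO and 16 WT UMIs (ratio 6.47, 3.76 to 11.8), in the H2-Ab1 cluster 476 KO and 58 WT UMIs (3.82, 2.90 to 5.10), and in classical-like barcodes 20 KO and 60 WT UMIs (0.777, 0.443 to 1.31). After thinning, a Cxcl2 UMI was found in 30.4% (17.7 to 45.8) of KO and 21.1% (11.4 to 33.9) of WT supported barcodes, against 1.46% of KO and 2.06% of WT Cd3e-gated barcodes, which should lack it. Unthinned shares were 33.3% in KO and 26.4% in WT (8.96% and 7.12% in Cd3e-gated KO and WT barcodes), so the 2 libraries differed more in UMIs per positive barcode than in the number of positive barcodes.

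Of the interleukin 1 genes, only Il1a met the size rule. Il1a, a cytokine released on cell damage, had 41 UMIs in 6 KO barcodes and 9 UMIs in 3 WT barcodes (ratio 6.0, 2.87 to 14), and 39 of the 41 lay in the H2-Ab1 cluster. One KO barcode held 19 and one WT barcode 7 of these UMIs, and without them 22 KO and 2 WT UMIs were left (14.5, 3.56 to 127), under the minimum of the size rule, so that the call was lost. Il1rn, the receptor antagonist that blocks interleukin 1, had 40 KO and 9 WT UMIs (5.85, 2.79 to 13.7), a sum of UMIs under the minimum of the size rule. Il1b, the secreted form made by activated monocytes, had 674 KO and 530 WT UMIs in 35 KO and 44 WT barcodes (1.67, 1.49 to 1.88), under the limit of 2. Its ratio was 1.88 (1.54 to 2.30) in nonclassical-like barcodes and 0.537 (0.387 to 0.733) in classical-like barcodes. Cxcl16, a membrane-bound chemokine, had 50 KO and 30 WT UMIs (2.19, 1.37 to 3.57), and Ccl5 had 45 KO and 22 WT UMIs (2.69, 1.58 to 4.71), of which 22 lay in a single KO barcode, so that its ratio without the highest barcodes was 1.59 (0.830 to 3.09). The neutrophil and monocyte attractant Ccl3 met the size rule as lower over all members (109 KO and 290 WT UMIs, 0.466) but not in supported barcodes (102 KO and 165 WT UMIs, 0.814, 0.629 to 1.05). Ccl6 (1.06) and Tnf (1.55, 0.991 to 2.44) were nearer to 1.

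MHC class II molecules present peptides to CD4 T cells, and monocytes raise their genes as they turn into antigen-presenting cells. Of 9 measured members of this list 4 were higher and 0 lower, with a median log2 ratio of 1.0 over 10 members. H2-Ab1 had 464 UMIs in 16 KO and 214 UMIs in 10 WT barcodes (2.85, 2.42 to 3.37). H2-Eb1 had 494 KO and 237 WT UMIs (2.74, 2.35 to 3.22), H2-Aa had 593 KO and 293 WT UMIs (2.66, 2.31 to 3.07), and Cd74, the invariant chain that guides class II molecules, had 1296 KO and 738 WT UMIs (2.31, 2.11 to 2.53). Leaving out the highest barcode changed these 4 ratios to between 2.19 and 2.83. The peptide-loading gene H2-DMa (59 KO and 68 WT UMIs, 1.14) and the protease gene Ctss (330 KO and 360 WT UMIs, 1.21) were near 1, and Ciita, the switch for the whole class II group, had 9 KO and 4 WT UMIs.

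The class II difference went with the number of class II barcodes more than with their level. Summed over the 4 genes, the supported barcodes had a median of 188 CPM in the KO and 169 CPM in the WT library, with highest values of 55935 CPM in KO and 50280 CPM in WT. Barcodes with at least 1000 CPM numbered 14 of 57 (24.6%, 14.1 to 37.8) in the KO and 10 of 72 (13.9%, 6.87 to 24.1) in the WT library, and they held 98.7% of the KO and 95.4% of the WT UMIs of the 4 genes. Among these barcodes the median was 10252 CPM in the KO and 16486 CPM in the WT library. In shallow barcodes few UMIs passed this limit, down to 1 UMI of 774 in a WT barcode and 3 of 801 in a KO barcode. Within the H2-Ab1 cluster, which these genes define, the ratios lay between 1.28 (Cd74) and 1.52 (H2-Eb1). The pool of classical-like and nonclassical-like barcodes held 2 KO and 3 WT UMIs of H2-Ab1. The H2-Ab1 cluster carried Kupffer markers at 3979 CPM in the KO and 2129 CPM in the WT library and conventional dendritic markers at 400.2 CPM in KO and 860.3 CPM in WT, with 9 of 12 Kupffer markers detected in each library. The part of these markers in the class II values was not tested. Over all barcodes outside the members, H2-Ab1 (1.02), H2-Aa (1.02) and Cd74 (0.975) had ratios close to 1. That set pools all other cell classes. Class II ratios in Kupffer and dendritic barcodes alone are not given here, so the difference is not shown to be particular to monocytes.

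**Figure D4:**
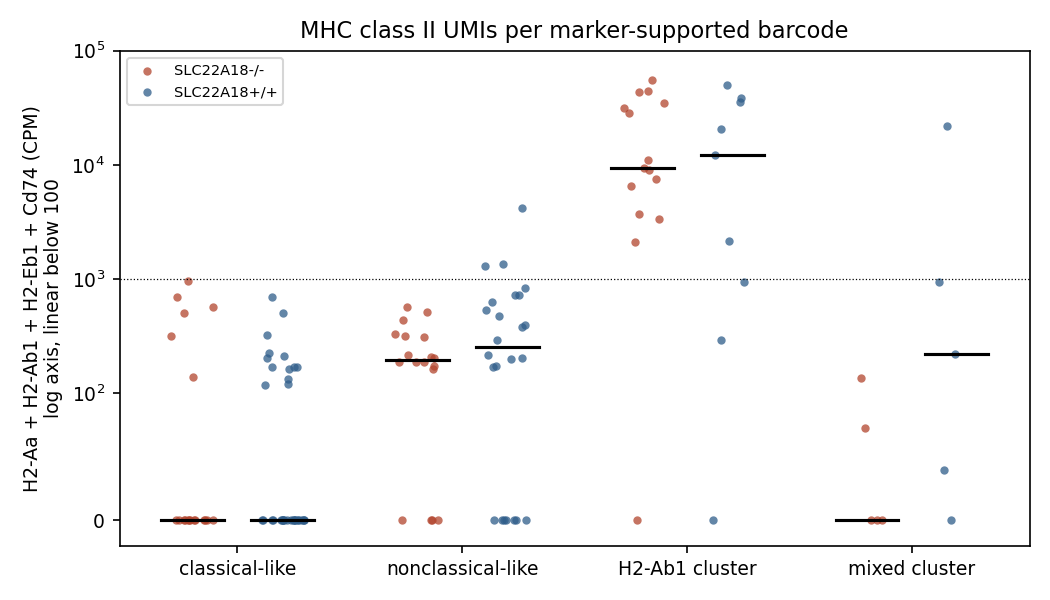
Summed CPM of H2-Aa, H2-Ab1, H2-Eb1 and Cd74 in each marker-supported barcode by cluster (log axis, linear below 100), with SLC22A18-/- left of SLC22A18+/+ in each pair, bars at the medians and a dotted line at 1000 CPM. The H2-Ab1 cluster holds all 14 KO and 6 of the 10 WT barcodes over the line.

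The promoters of genes that moved together, or that stood at the ends of the range, are shown from 250 bases before to 50 bases after the start (RefSeq, GRCm38.p6; of 5 genes looked up 4 were in the table). H2-Aa (chr17:34287774-34288073, minus strand) and H2-Eb1 (chr17:34305617-34305916, plus strand) each hold the Y box CTGATTGG, the last element of the conserved class II promoter module, in capitals. Searched on both strands, these letters are in 4.09% of 32817 promoters of the same length.
H2-Aa: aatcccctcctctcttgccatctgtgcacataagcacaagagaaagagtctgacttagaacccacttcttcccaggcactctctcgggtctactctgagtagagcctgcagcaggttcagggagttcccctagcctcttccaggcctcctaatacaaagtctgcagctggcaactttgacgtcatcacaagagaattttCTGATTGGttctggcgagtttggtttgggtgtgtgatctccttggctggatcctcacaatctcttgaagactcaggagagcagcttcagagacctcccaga
H2-Eb1: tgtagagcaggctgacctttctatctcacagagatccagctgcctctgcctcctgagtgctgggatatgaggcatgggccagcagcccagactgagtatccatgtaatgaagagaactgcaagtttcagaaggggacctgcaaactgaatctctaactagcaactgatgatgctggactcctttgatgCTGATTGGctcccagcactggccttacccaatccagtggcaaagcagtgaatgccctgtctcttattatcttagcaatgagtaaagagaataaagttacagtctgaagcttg
Cxcl2 (chr5:90903649-90903948, plus strand) holds GGANTTTCC, the core of an NF-kB site, in capitals, and 1.26% of the promoters hold it on either strand. Hspa1b (chr17:34959189-34959488, minus strand) holds GAANNTTC, a pair of facing heat shock half-sites, in capitals, and 7.86% of the promoters hold it. The lower-case letters of the Hspa1b window also contain the Y box letters, apart from the capitals. A match describes the letters only.
Cxcl2: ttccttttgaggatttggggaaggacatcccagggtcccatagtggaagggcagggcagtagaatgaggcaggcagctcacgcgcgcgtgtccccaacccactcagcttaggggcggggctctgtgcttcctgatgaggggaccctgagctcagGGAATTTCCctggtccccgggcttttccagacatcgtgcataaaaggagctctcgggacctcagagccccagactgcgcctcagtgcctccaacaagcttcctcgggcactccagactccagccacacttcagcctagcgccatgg
Hspa1b: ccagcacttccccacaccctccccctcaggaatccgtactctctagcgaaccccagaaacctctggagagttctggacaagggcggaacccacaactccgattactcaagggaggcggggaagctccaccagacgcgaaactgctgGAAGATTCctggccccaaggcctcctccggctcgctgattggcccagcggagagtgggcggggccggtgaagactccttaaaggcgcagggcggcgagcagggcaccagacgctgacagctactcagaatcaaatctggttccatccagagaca

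Other genes higher in the supported barcodes had smaller sums. Cd274, which encodes the T cell checkpoint ligand PD-L1, had 83 KO and 48 WT UMIs in 23 barcodes of each library (2.28, 1.58 to 3.32). Leaving out the highest barcodes gave 2.28 (1.53 to 3.43), and the pool of classical-like and nonclassical-like barcodes gave 2.20 (1.35 to 3.6). Cd274 UMIs were found in 26.1% of KO and 21.1% of WT thinned supported barcodes (40.4% and 31.9% of KO and WT before thinning), against 10.2% of KO and 11.7% of WT Cd3e-gated ones (35.8% and 30.2% of KO and WT before thinning). Bcl2a1b, a survival gene of the BCL2 family, had 229 KO and 124 WT UMIs in 34 KO and 25 WT barcodes (2.43, 1.95 to 3.05), and its near-identical neighbour Bcl2a1a 62 KO and 39 WT UMIs (2.09, 1.38 to 3.21). Reads may be split between these copies. Aif1, a macrophage activation marker, had 96 KO and 54 WT UMIs (2.34, 1.66 to 3.33), 83 of the 96 in the H2-Ab1 cluster. Slc7a11, the cystine importer used against oxidative stress, had 38 KO and 15 WT UMIs (3.33, 1.79 to 6.53), and without its highest barcodes 2.23 (1.07 to 4.81). Apart from Slc7a11, these genes were chosen after their values were seen.

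Hspa1b, which encodes an inducible chaperone of the HSP70 family, had the lowest ratio of the genes that also met the size rule without their highest barcode. It had 14 UMIs in 11 of 57 KO barcodes and 99 UMIs in 29 of 72 WT barcodes, 44.0 CPM in KO and 237 CPM in WT, a ratio of 0.186 (0.0982 to 0.327). No barcode held more than 3 KO or 13 WT UMIs. The direction was the same in classical-like (2 KO and 17 WT UMIs), nonclassical-like (7 KO and 59 WT UMIs, 0.146, 0.0564 to 0.321) and H2-Ab1 cluster barcodes (5 KO and 19 WT UMIs, 0.122). After thinning, the gene was found in 13% (4.94 to 26.3) of KO and 24.6% (14.1 to 37.8) of WT barcodes, and before thinning in 19.3% of KO and 40.3% of WT barcodes. Of Cd3e-gated barcodes it was found in 4.85% of KO and 9.97% of WT after thinning, and in 14.2% of KO and 22% of WT before. Its near-identical neighbour Hspa1a had 30 KO and 70 WT UMIs (0.564, 0.355 to 0.877), and the counting may split reads between the 2 genes. The chaperone gene Hsp90aa1 had 101 KO and 127 WT UMIs (1.05, 0.798 to 1.37) and the co-chaperone gene Dnajb1 11 KO and 16 WT UMIs. Of 10 chaperone genes measured only Hspa1b met the size rule, and the list's median log2 ratio over 15 members was -0.01.

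The ratio of Hspa1b was below 1 in every compared class, and its lowest value was that of the supported monocyte barcodes. It was 0.554 (0.521 to 0.588) in Kupffer, 0.607 (0.390 to 0.932) in neutrophil, 0.464 (0.302 to 0.703) in dendritic and 0.406 (0.30 to 0.541) in Cd3e-gated barcodes, and 0.642 (0.632 to 0.652) in all barcodes outside the members. The interval of the supported monocyte barcodes ends below those of the Kupffer, neutrophil and other barcodes and overlaps those of the dendritic and Cd3e-gated barcodes.

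Adhesion and immediate early genes contained a few more genes that were lower. Icam1, the endothelial and leukocyte ligand of the integrins LFA-1 and Mac-1, had 20 UMIs in 13 KO and 66 UMIs in 31 WT barcodes (0.399, 0.229 to 0.666). The thinned share of barcodes with Icam1 was 10.9% (3.62 to 23.6) in KO and 21.1% (11.4 to 33.9) in WT, beside 10.7% of KO and 8.59% of WT Cd3e-gated barcodes, so that the KO share was at the level of those barcodes. Before thinning the shares were 22.8% in KO and 43.1% in WT, beside 25.9% of KO and 18.6% of WT Cd3e-gated barcodes. Of 18 adhesion genes measured, Icam1 was the only one to meet the size rule. Its integrin partners Itgal (1.05) and Itgam (0.829, 0.572 to 1.19) did not. Of 21 immediate early genes 0 were higher and 2 lower, with a median log2 ratio of -0.25 over 22. These were Jun (69 KO and 202 WT UMIs, 0.450, 0.337 to 0.594), in which 1 WT barcode held 47 UMIs and the ratio without the highest barcodes was 0.527, and Nr4a2 (32 KO and 85 WT UMIs, 0.496, 0.319 to 0.752). Fos (282 KO and 529 WT UMIs, 0.702, 0.605 to 0.812) and Junb (433 KO and 637 WT UMIs, 0.895) did not meet the rule.

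Among 18 NF-kB feedback genes, Icam1 and the survival gene Ier3 (17 KO and 52 WT UMIs, 0.430, 0.233 to 0.756) were lower and 0 were higher, while Nfkbia, which encodes the inhibitor of NF-kB and is its rapid target, had 468 KO and 565 WT UMIs (1.09, 0.963 to 1.23). Among 15 pattern recognition genes, 0 were higher and the bacterial peptidoglycan sensor Nod1 was lower (11 KO and 41 WT UMIs, 0.353, 0.164 to 0.700). Tlr2 (1.08), Cd14 (0.941) and the inflammasome sensor Nlrp3 (1.16, 0.897 to 1.5) had ratios near 1.

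Interferon response genes were mixed. Of 14 measured, the RNA sensor Ifih1 was higher (34 KO and 22 WT UMIs, 2.03, 1.16 to 3.65), although over all members its log2 ratio of 1.11 became -0.11 when every barcode had the same weight, and the transcription factor Irf1 and the antiviral gene Oasl2 were lower. Irf1 had 25 UMIs in 21 KO and 75 UMIs in 35 WT barcodes (0.439, 0.267 to 0.698), beside ratios of 1.12 in Kupffer and 0.417 in dendritic barcodes. Oasl2 had 13 KO and 38 WT UMIs (0.450, 0.220 to 0.864), 15 of them in 1 WT barcode, and without the highest barcodes 0.630 (0.277 to 1.34). Isg15, a ubiquitin-like interferon target, met the size rule as lower over all members (23 KO and 70 WT UMIs, 0.408), but 47 of the 70 lay in 1 barcode, and supported barcodes had 13 KO and 16 WT UMIs (1.07, 0.473 to 2.37).

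Several other genes were lower, without forming a list of their own. Chil3, a chitinase-like protein of classical monocytes and alternatively activated macrophages, had 109 UMIs in 19 KO and 344 UMIs in 25 WT barcodes (0.417, 0.333 to 0.519). In classical-like barcodes it had 43 KO and 292 WT UMIs (0.343, 0.243 to 0.474), and in the H2-Ab1 cluster 48 KO and 4 WT UMIs, in the other direction. The share of barcodes with a Chil3 UMI did not follow, at 33.3% in KO and 34.7% in WT unthinned, and 30.4% in KO and 22.8% in WT thinned. Ly6a2, a relative of the Ly6 surface antigens, had 19 KO and 101 WT UMIs (0.248, 0.143 to 0.407), with 10 KO and 77 WT UMIs in classical-like barcodes. Tnfrsf21, death receptor 6, had 16 KO and 60 WT UMIs in 12 KO and 32 WT barcodes (0.351, 0.189 to 0.617), and its ratio in all barcodes outside the members was 1.05. Pglyrp1, a peptidoglycan-binding protein of nonclassical monocytes and neutrophils, had 23 KO and 80 WT UMIs (0.378, 0.227 to 0.608), of which 18 KO and 62 WT UMIs lay in nonclassical-like barcodes. Serpinb10, a protease inhibitor of bone marrow cells, had 21 KO and 68 WT UMIs (0.406, 0.237 to 0.671), and Csf3r, the receptor of granulocyte colony-stimulating factor, 26 KO and 68 WT UMIs (0.503, 0.307 to 0.801), which missed the limit of the size rule. Csf3r belongs to the neutrophil marker list, whose summed level was 185.5 CPM in KO and 1035 CPM in WT. A single WT barcode of the mixed cluster held 204 S100a8 and 67 S100a9 UMIs of the 433 WT UMIs of that list. Of the Csf3r UMIs, 8 KO and 47 WT lay in classical-like barcodes, and 2 WT UMIs in the mixed cluster. The part of neutrophil RNA in the value of Csf3r was not tested. Pglyrp1 and Serpinb10 were chosen after their values were seen.

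The neutrophil proteins S100a8 and S100a9 led the list of lower genes through 1 barcode, and both belong to the neutrophil marker list. S100a8 had 1 UMI in the KO library and 214 in the WT library over all members, 204 of them in 1 barcode of the mixed cluster, which also held 67 of the 72 UMIs of S100a9. Prtn3, a granule protease of myeloid precursors, had 2 KO and 52 WT UMIs in supported barcodes, 48 of the WT UMIs in 1 barcode. Of 21 granule and oxidase genes, 0 were higher and S100a8, Prtn3 and Chil3 lower, and Cybb, the catalytic subunit of the phagocyte oxidase, had 565 KO and 757 WT UMIs (0.982, 0.879 to 1.10). Of 4 measured division genes, Stmn1 (5 KO and 49 WT UMIs), Hmgb2 (81 KO and 269 WT UMIs) and Cenpa (14 KO and 40 WT UMIs) were lower, and single WT barcodes held 24 of the Stmn1, 85 of the Hmgb2 and 14 of the Cenpa UMIs. Without the highest barcodes Hmgb2 was at 0.529 and Cenpa at 0.506, and none of the 3 met the rule.

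Receptors, lineage factors and phagocytosis genes gave few or no calls, beside 1.63% of genes higher and 1.59% lower over all 2822 measured. At those shares lists of this size hold few or no calls, so these counts set no list apart. Of 20 chemokine and growth factor receptors measured 0 were higher and 0 lower (Csf3r was lower over all members), with a median log2 ratio of 0.14. Csf1r, the receptor for the growth factor that monocytes need to survive, had 158 KO and 214 WT UMIs (0.972, 0.786 to 1.20), and Cx3cr1 had 60 KO and 92 WT UMIs (0.858, 0.609 to 1.20). Among 25 transcription factors there was no call either way, and their median was -0.02. Spi1, the master factor of myeloid cells, had 182 KO and 256 WT UMIs (0.936, 0.770 to 1.14), Nr4a1, on which nonclassical monocytes depend, 287 KO and 417 WT UMIs (0.906, 0.777 to 1.06), Cebpb 763 KO and 1089 WT UMIs (0.922, 0.840 to 1.01) and Irf8 59 KO and 64 WT UMIs (1.21, 0.837 to 1.76). Of 18 Fc receptor and phagocytosis genes 0 met the rule in either direction, among them Fcer1g (0.923) and Tyrobp (0.901). Of 14 MHC class I genes 0 met it, with B2m at 1.16 (1.02 to 1.32) and H2-K1 at 1.14 (0.992 to 1.30).

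Lysosomal, lipid and metabolic lists held single calls or none, beside 1.63% of genes higher and 1.59% lower over all 2822 measured. Lyz2, the lysozyme of macrophages, was abundant, at 2017 KO and 3470 WT UMIs in 54 KO and 72 WT barcodes (0.765, 0.724 to 0.808), while its relative Lyz1 had 65 KO and 20 WT UMIs with 59 in 1 KO barcode. Of 25 lysosomal genes Lyz1 was higher and 0 were lower, with Ctsb at 1.5 (1.28 to 1.77) and Ctsd at 1.64 (1.12 to 2.40). Of 14 lipid-associated macrophage genes, Lpl, which frees fatty acids from lipoproteins, was higher (39 KO and 23 WT UMIs, 2.23, 1.30 to 3.91; 1.59 without its highest barcodes) and the lectin gene Lgals1 lower (38 KO and 109 WT UMIs, 0.459; 0.630 without them), with a median of 0.57. Apoe had 889 KO and 703 WT UMIs (1.66, 1.51 to 1.84), beside hepatocyte marker levels of 7938 CPM in KO and 6157 CPM in WT. Fabp1, the fatty acid binding protein of hepatocytes, met the size rule too (207 KO and 105 WT UMIs, 2.59), with 119 UMIs in 1 KO barcode and a ratio of 1.16 without the highest barcodes. The part of free hepatocyte RNA in these values was not tested. Of 13 glycolysis genes Tpi1 was higher (36 KO and 21 WT UMIs, 2.26, 1.28 to 4.07), of 8 iron genes the heme-pathway enzyme gene Blvrb (38 KO and 20 WT UMIs, 2.50, 1.42 to 4.54), and of 12 complement and coagulation genes C1qa (171 KO and 108 WT UMIs, 2.08, 1.63 to 2.68), with 90 KO and 51 WT UMIs in single barcodes and 1.87 without them. Of 5 eicosanoid genes and 13 unfolded protein response genes 0 were called.

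The pool of the classical-like and nonclassical-like supported barcodes, 37 KO and 58 WT, held 1880 measured genes, of which 23 were higher (1.22%) and 22 lower (1.17%). Of these, 6 of the higher and 10 of the lower genes were also called over all supported barcodes. In this pool, chosen after seeing the data, Pparg, the lipid-sensing nuclear receptor that was among the leading genes of the nonclassical-like cluster, had 136 KO and 107 WT UMIs (2.18, 1.68 to 2.83), and in nonclassical-like barcodes alone 131 KO and 100 WT UMIs (1.61, 1.24 to 2.12). Cxcl2 (2.35, 1.73 to 3.20), Bcl2a1b (2.62, 1.71 to 4.05) and Hspa1b (0.203, 0.0894 to 0.406) met the rule in the pool too, and Chil3 had 61 KO and 306 WT UMIs (0.342, 0.255 to 0.451).

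The gene that names the study was barely captured in these cells. Slc22a18 had 1 UMI in the 83 KO and 8 UMIs in the 106 WT barcodes (0.155, 0.00349 to 1.16), and 0 KO and 4 WT UMIs in supported barcodes. Over all barcodes outside the members it had 2217 KO and 2519 WT UMIs (0.892, 0.842 to 0.944). Since the part of the gene that was removed is not given, 3' UMIs do not check the label. Ascl2, the transcription factor in the series title, had 1 UMI in each library, and the beta-catenin target Axin2 had 2 in each. Of 4 measured genes of the Wnt and beta-catenin list 0 met the rule, with Ctnnb1, which encodes beta-catenin, at 31 KO and 45 WT UMIs (0.907, 0.555 to 1.46) and its partner Tcf7l2 at 84 KO and 101 WT UMIs (1.09, 0.810 to 1.48). The peptide transporter gene Slc15a2 had 46 UMIs in 22 KO barcodes and 1 UMI in 1 WT barcode (57.1, 9.74 to 2302), below the minimum of UMIs, and 28 KO and 1 WT UMIs in supported barcodes. The same gene had 6705 KO and 46 WT UMIs (148, 111 to 202) over all barcodes outside the members.

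The ratios of Cxcl2 and Cd274 in the supported monocyte barcodes were set beside those in the most similar classes, and that of Icam1 was close to its ratio in dendritic barcodes. Cxcl2 was at 1.33 (1.28 to 1.37) in Kupffer, 0.684 (0.624 to 0.748) in neutrophil, 1.25 (0.442 to 3.79) in dendritic and 1.48 (1.45 to 1.5) in all barcodes outside the members, each below the interval of 3.68 to 5.20 in the monocyte barcodes except that of the dendritic barcodes, which reaches into it. The Cxcl2 ratio of the monocyte barcodes did not hold in each cluster. In the H2-Ab1 cluster, which also carried Kupffer markers, Cxcl2 was at 4313 CPM in KO and 1130 CPM in WT. In classical-like barcodes it was at 256 CPM in KO and 330 CPM in WT. Icam1 was at 1.07 (0.974 to 1.18) in Kupffer and 0.435 (0.288 to 0.648) in dendritic barcodes, beside 0.399 in the monocyte barcodes. Cd274 was at 1.35 (1.22 to 1.49) in Kupffer, 0.662 (0.520 to 0.840) in neutrophil and 0.384 (0.275 to 0.529) in dendritic barcodes, beside 2.28 (1.58 to 3.32). With 1 library per genotype these differences between classes were not tested.

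**Figure D5:**
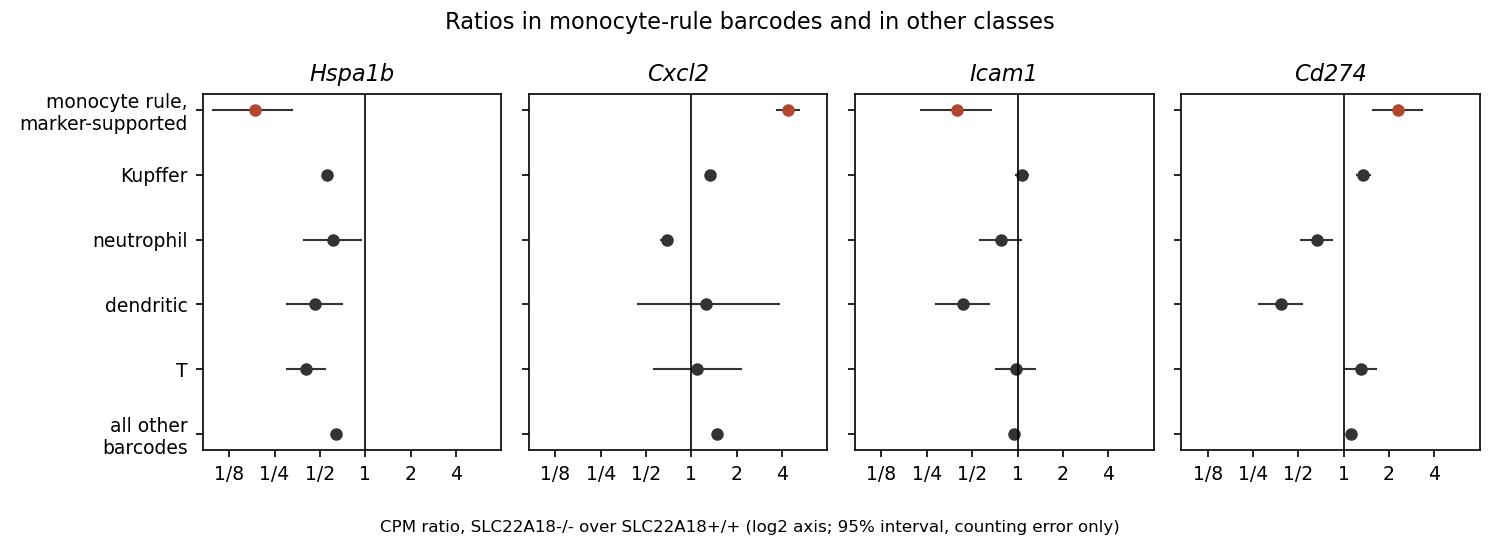
Ratio of CPM in SLC22A18-/- over SLC22A18+/+ for Hspa1b, Cxcl2, Icam1 and Cd274 (log2 axis, 95% counting intervals) in the marker-supported monocyte barcodes (red) and, in black, in Kupffer, neutrophil, dendritic and T barcodes and in all barcodes outside the members. Hspa1b is below 1 in every class, and Cxcl2 is highest in the monocyte barcodes.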

How the data were processed

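The deposited matrices hold counts, raw UMI counts per gene and barcode, which the authors made with Cell Ranger 8.0.1 per the file headers, on mm10 per the submitters' processing notes. The lowest barcode had 500 UMIs. Members, gene lists and the rules used were chosen with earlier results of these data known. Where identifiers shared a symbol, the one with the most UMIs kept it, and the 26 others were counted as separate genes. Counts were summed per library, scaled to CPM and compared as ratios with exact Clopper-Pearson 95% intervals. List medians used genes with at least 20 UMIs and 0.5 added to each sum. Genes under 10% of the level in the rest of the library were set aside. Named genes were the 12 largest ratios each way over all members, list members past the size rule, or the 2 with the most UMIs. Any other gene named was chosen after its values were seen. A few genes that these rules select are not reported here. Clusters came from 1500 variable genes, 15 components, 10 neighbours and Leiden resolution 0.5 (scanpy 1.11.5), doublets from Scrublet (expected rate 8%, 1 threshold for both libraries), without removal. Barcodes of other classes needed 2 UMIs of Clec4f and Timd4 (Kupffer), Retnlg and Il1r2 (neutrophil), Flt3 and Xcr1 (dendritic) or Cd3e. No named cluster had 50 barcodes in each library, so no single cluster was compared across all genes as planned; the marker-supported barcodes and the pool of both monocyte-like clusters, chosen after seeing the data, were. The ratio procedure was tested on simulated counts. Scripts used Python 3.11.15, numpy 2.4.6, scipy 1.17.1 and pandas 2.3.3. edgeR 4.0.16 gave TMM factors only.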

Additional observations from a re-analysis of the deposited data

Results flagged for a closer look

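Each gene below met the size rule in opposite directions over all selected monocyte barcodes and in another class. The differences between classes were not tested, since each class has 1 library per genotype, and values are log2 ratios of the knockout-labelled over the wild-type-labelled library. Cd274, the gene of PD-L1, was at 1.25 in the monocyte barcodes and -1.38 in the dendritic barcodes. Stard13 was at 2.32 in the monocyte barcodes, where 1 unsupported barcode held most of its UMIs, and at -1.33 in the neutrophil barcodes. Bzw2 was at 1.06 and Serpina3g at 1.54, against -1.27 and -4.27 in the dendritic barcodes. Marchf3 was at -1.63, against 1.38 in the dendritic barcodes. Of its WT UMIs, 18 lay in 1 barcode of the H2-Ab1 cluster and 15 in T-like barcodes. Supported classical-like barcodes held 3 KO and 2 WT UMIs of Marchf3, and nonclassical-like ones 1 KO and 2 WT UMIs. Serpinb6b was at -1.71, with 0 and 1 UMIs in supported barcodes, against 1.58 in the neutrophil barcodes.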

How the results depend on the processing

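No paired analysis was possible because each genotype has 1 library. Of 62 named genes under all alternatives, 910 values kept direction and side of the size rule, 99 no longer met it, 2 newly met it, 20 moved and 17 reversed; of list medians 403 stayed and 5 moved. The counts of genes higher and lower (52 each) became 173 and 152 with at least 20 UMIs, 11 and 16 with at least 100, and 173 each with a ratio of 1.5, by construction of those limits. With each gene's highest barcode left out in each library, 21 were higher, and Stard13 became -0.17 (log2). Reversed log2 ratios without S100a4 in the marker sum were Prex2 -0.56, Dmd -0.30, Stard13 -1.55, Emp1 -0.15 and Diaph3 -0.53. Without barcodes of 3 or more T and NK UMIs they were Diaph3 -0.35, Tbc1d4 1.16 and Isg15 0.50. In marker-supported barcodes they were Prex2 -1.37, Dmd -0.15, Stard13 -0.051, Emp1 -0.27, Diaph3 -0.30, Tbc1d4 1.22 and Isg15 0.11. Weighting barcodes equally gave Ifih1 -0.11. At resolution 0.3 the classical-like cluster took 49.4% and 57.5% and the nonclassical-like cluster 0 of the 83 and 106 members, since fewer clusters were made. The alternatives with supported barcodes, the highest barcode and the mixed cluster left out were chosen after seeing the data. TMM scaling and leaving out ribosomal, mitochondrial and haemoglobin genes changed no call. Few barcodes and UMIs limit all of these results.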
